A study of Homo sapiens with 6 samples.

Results

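The genes described here encode the receptors for insulin and the insulin-like growth factors (IGFs), the substrates that relay their signal, and the secreted proteins that bind IGFs. The 10 genes, INSR, IGF1R, IGF2R, IRS1, IRS2, IGFBP3, IGFBP4, IGFBP5, IGFBP6 and IGFBP7, were taken by symbol from the 30618 genes listed with counts, and 9 of them were among the 16749 genes with enough counts to be tested. RNA-seq was measured in ARPE-19 cells, an established human retinal pigment epithelial (RPE) line, kept in 50 mM glucose as a model of diabetic retinopathy. The NC group (3 libraries) received a non-targeting control siRNA and the siEIF1 group (3 libraries) received an siRNA against EIF1, a translation initiation factor that takes part in start codon selection, both by lipid transfection. The comparison asks how transcript levels differ when EIF1 is depleted under high glucose, which both groups share, and cells in normal glucose were not analysed here. The data come from a single cell line, and the labels give the replicates a number only, while the study's methods call them biological replicates, so p-values measure the spread between these libraries.

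Insulin and IGF1 bind INSR and IGF1R, a pair of related receptor tyrosine kinases that phosphorylate the substrates IRS1 and IRS2 and thereby engage the PI3K-AKT and RAS-MAPK pathways. IGF2R, the cation-independent mannose 6-phosphate receptor, carries IGF2 to lysosomes without a kinase of its own. IGF binding proteins hold IGFs outside the cell and either keep them from or release them to the receptors, and RPE cells are among the cells of the eye that secrete them. INS, IGF1, IGF2 and INSRR were not found by symbol among the genes listed with counts, so they were not analysed here.

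The targeted gene, EIF1, was checked first. Its level was 294.35, 281.08 and 281.28 FPKM (fragments scaled by transcript length and by the mapped fragments of the library) in the NC group and 24.28, 22.68 and 23.5 FPKM in the siEIF1 group, a log2 fold change of -3.58 (SE 0.0549, adjusted p = 1.08e-13, from the quasi-likelihood test in edgeR, adjusted by Benjamini-Hochberg). The libraries held 26499929 to 31431479 counts. All 15 of the 15 proliferation markers examined were lower in the siEIF1 group, with a median log2 fold change of -0.94, and their summed level was 172 to 178 FPKM in NC and 120 to 123 FPKM in siEIF1 libraries. Of 15 RPE markers, 12 were listed with counts and 10 were tested, of which 3 rose and 0 fell. The listed markers summed to 526 to 546 FPKM in NC and 570 to 616 FPKM in siEIF1 libraries. Most of that sum came from the general epithelial keratins KRT18 (326 and 382 FPKM by mean) and KRT8 (113 and 131 FPKM), which rose. RLBP1, which also rose, was scarce, with 11 to 17 counts in NC and 42 to 49 counts in siEIF1 libraries. Its means were 0.237 and 0.68 FPKM. BEST1, a chloride channel of the RPE, was at 66 ± 5.15 and 52 ± 11.9 FPKM (SD, n = 3 each; adjusted p = 0.106, edgeR). Whether reads of an overlapping gene are among the BEST1 counts is not known, since the strand setting of the counting was not given. The pigment enzyme gene TYR had at most 2 counts in a library. The marker lists of endothelium, of leukocytes and of neural retina or glia each summed to at most 1.26 FPKM in a library. There were 0 calls among the 4 of these markers tested by edgeR. Pericyte markers summed to 6.85 to 9.51 FPKM in NC and 11.4 to 13.7 FPKM in siEIF1 libraries, with PDGFRB higher and 3 other tested genes not passing. Nearly all of that sum was PDGFRB (8.15 and 12.2 FPKM by mean), and no other pericyte marker exceeded 0.297 FPKM by mean in either group. The part of these markers in the results below was not tested, and in bulk RNA fewer cells of a type and less RNA per cell cannot be told apart.

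Of the 9 tested genes, 3 rose in the siEIF1 group (IGF1R, IGFBP6 and IGFBP7) and 0 fell, with 0.05 as the limit of the adjusted p in edgeR. Over all tested genes, 10.2% were called higher and 10.4% were called lower. At an unadjusted p under 0.05 in edgeR, 1 gene of the family was lower, IRS1. DESeq2 called IRS1 lower at an adjusted p of 0.0449. With the added limit of a 2-fold change, which 1.71% of all tested genes passed, 0 genes of the family were called. The log2 fold change was above 0 for 7 of the 9 genes, with a median of 0.16, beside a median of 0.0033 over all tested genes. Counts scaled by library size (CPM) did not overlap between the groups for 5 of the 9 genes, beside 37.1% of all tested genes. By FPKM, the groups did not overlap for 2 of the 9, IGFBP6 and IGFBP7.

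**Figure D1:**
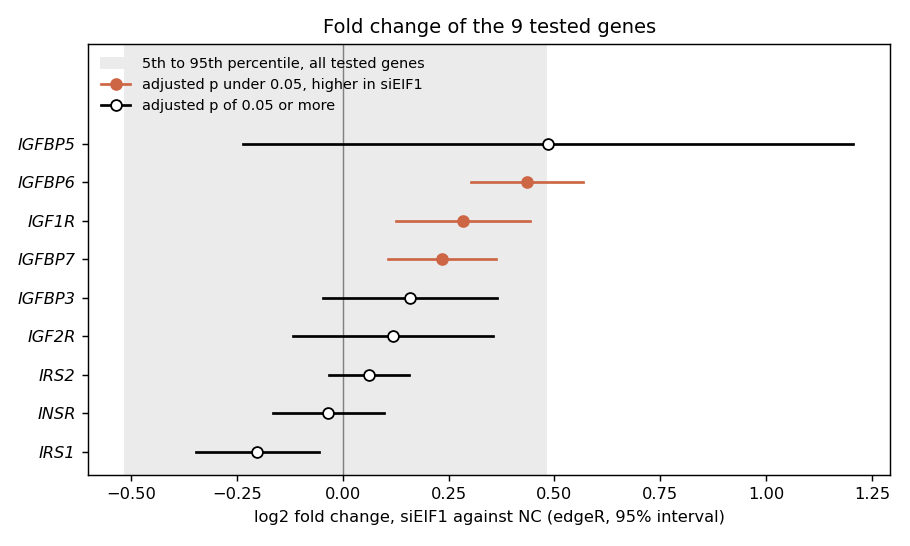
Log2 fold change of the 9 tested genes in siEIF1 against NC libraries (points) with 95% intervals (lines), over the 5th to 95th percentile of all 16749 tested genes (grey band, -0.514 to 0.481). The 3 filled genes, IGFBP6, IGF1R and IGFBP7, passed an adjusted p of 0.05, and their intervals lie above 0.

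Levels compared per length ran over several orders of magnitude. In the NC group the order of mean FPKM was IGFBP7, IGFBP6, IGFBP3, IRS2, IGF2R, IRS1, IGF1R, INSR, IGFBP5 and IGFBP4, and only the last pair overlapped in their ranges over libraries. IGFBP7 lay 3.2-fold above IGFBP6, and IGFBP6 lay 3.7-fold above IGFBP3. The steps from IGFBP3 to IRS2, from IRS2 to IGF2R, from IGF2R to IRS1, from IRS1 to IGF1R and from IGF1R to INSR were 1.84-fold, 1.6-fold, 1.91-fold, 1.25-fold and 1.55-fold. In the siEIF1 group IGF1R stood above IRS1 by mean, but the ranges of that pair overlapped (4.21 to 5.32 and 4.04 to 4.89 FPKM). The binding proteins thus held the highest and the lowest places of the family in both groups.

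**Figure D2:**
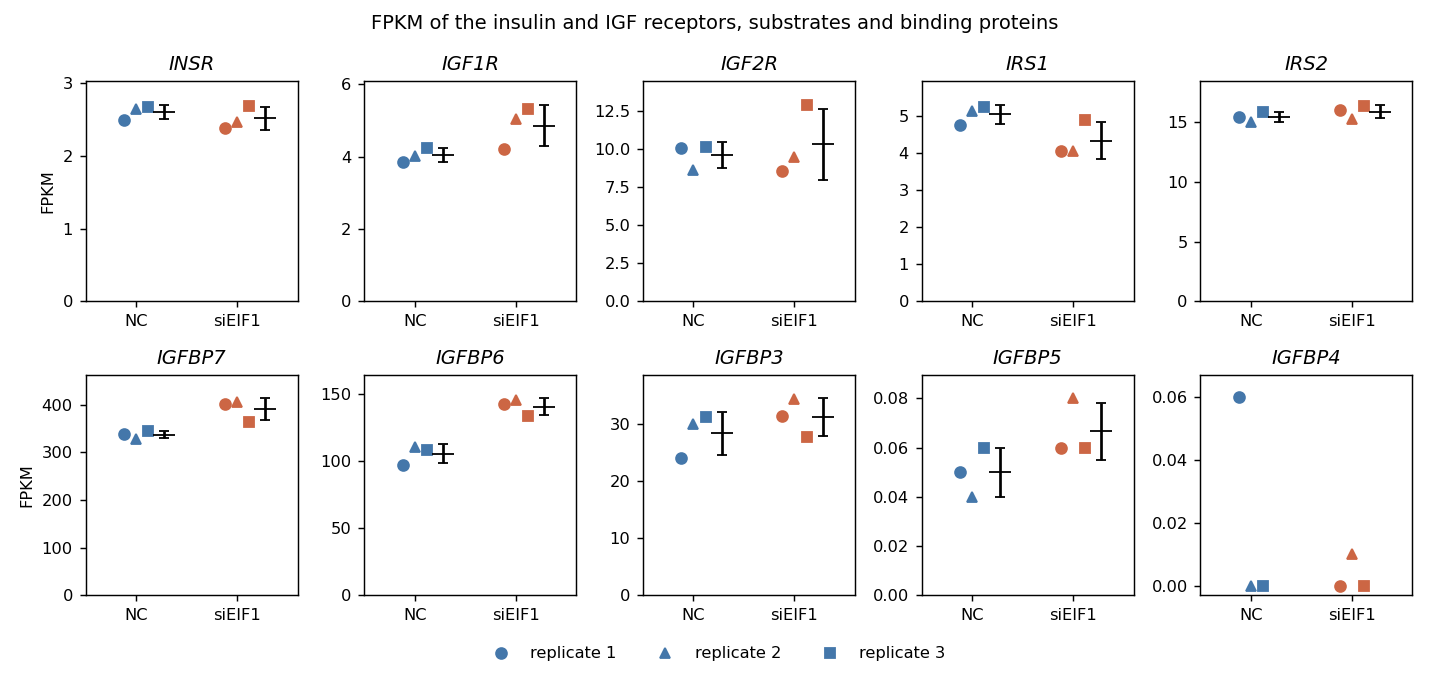
FPKM of the 10 genes in each library (circle, triangle and square for replicates 1, 2 and 3; blue NC, orange siEIF1), each panel on its own linear axis that includes 0, with the mean ± SD of 3 libraries in black for all but IGFBP4. IGFBP6 and IGFBP7 show a gap between the groups, while IGFBP4 is listed at 0 in 4 of the 6 libraries.

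The receptor tyrosine kinases are shown with the 250 bases before their start sites, since IGF1R rose and INSR did not pass the test. INSR (ENSG00000171105.14) lies on the reverse strand at chr19:7112255-7294414 (GRCh38), and its canonical transcript has 22 exons and 9463 bases. IGF1R (ENSG00000140443.15) lies on the forward strand at chr15:98648539-98964530, with 21 exons and a transcript of 12235 bases. The windows, from RefSeq on GRCh38.p14, are chr19:7294415-7294664 read on the reverse strand for INSR and chr15:98648289-98648538 read on the forward strand for IGF1R, both just outside the annotated gene. Capitals mark the GC box GGGCGG, the core letters of a site for Sp1-type factors.
INSR: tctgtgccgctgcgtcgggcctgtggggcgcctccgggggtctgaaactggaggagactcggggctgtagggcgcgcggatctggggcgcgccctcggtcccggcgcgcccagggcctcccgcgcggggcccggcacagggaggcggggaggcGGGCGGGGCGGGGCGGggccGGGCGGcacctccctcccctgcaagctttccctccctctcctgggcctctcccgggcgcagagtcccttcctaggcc
IGF1R: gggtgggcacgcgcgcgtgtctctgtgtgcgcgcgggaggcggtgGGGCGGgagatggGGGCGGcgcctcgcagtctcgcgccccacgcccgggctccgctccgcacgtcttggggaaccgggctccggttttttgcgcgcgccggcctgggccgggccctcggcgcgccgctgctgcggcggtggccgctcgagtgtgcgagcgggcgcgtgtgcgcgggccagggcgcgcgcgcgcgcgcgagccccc
The INSR window held 4 GC boxes, of which the first 3 share bases, 97 to 77 bases before the start, and the IGF1R window held 2, 205 and 192 bases before it. The letters occurred in 42.6% of 35116 promoter windows of the same length on either strand. The GC content was 78.4% for INSR and 81.2% for IGF1R, beside a median of 58% over all windows.

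INSR, the insulin receptor, was at 2.5, 2.65 and 2.68 FPKM in the NC group and at 2.39, 2.47 and 2.69 FPKM in the siEIF1 group. The groups overlapped, with the highest and the lowest value both in siEIF1 libraries. Its means were 2.61 ± 0.0964 and 2.517 ± 0.155 FPKM (SD, n = 3 each). The log2 fold change was -0.03 (95% interval -0.16 to 0.10, adjusted p = 0.752, edgeR), and 87.3% of all tested genes had a larger absolute change. The interval thus covers folds from 0.892 to 1.07. Its sign turned without siEIF1 replicate 1, with a log2 fold change of 0.003.

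IGF1R, the receptor for IGF1 and IGF2 that drives growth and survival, was at 3.86, 4.02 and 4.24 FPKM in the NC group and at 4.21, 5.04 and 5.32 FPKM in the siEIF1 group. siEIF1 replicates 2 and 3 stood above all NC libraries, and siEIF1 replicate 1 lay just under NC replicate 3. In CPM scaled by the trimmed mean of M values (TMM), the NC libraries had 65.91, 69.07 and 71.21 and the siEIF1 libraries 72.53, 88.88 and 89.85, with no overlap. Mean levels were 4.04 ± 0.191 and 4.857 ± 0.577 FPKM (SD, n = 3 each). The gene rose 1.22-fold, a log2 fold change of 0.28 (SE 0.0736, 95% interval 0.13 to 0.44, adjusted p = 0.0147, edgeR). The call was lost without NC replicate 1 (adjusted p = 0.0683), NC replicate 2 (0.0513) or siEIF1 replicate 2 (0.0791), and with limma on log2(FPKM + 1) (0.107) and log2(FPKM + 0.1) (0.1).

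Within a library, the ratio of IGF1R to INSR does not depend on scaling between libraries. It was 1.54, 1.52 and 1.58 in the NC group and 1.76, 2.04 and 1.98 in the siEIF1 group, on FPKM. Every siEIF1 library lay above every NC library. The mean ratio was 1.55 ± 0.0327 and 1.93 ± 0.146 (SD, n = 3 each), a log2 difference of 0.31. A two-sided exact permutation test gave p = 0.1, the smallest p that 3 against 3 libraries allow, so this design could not bring the ratio under 0.05.

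IGF2R (ENSG00000197081.16, chr6:159969082-160113507, forward strand, 48 exons) was at 10.08, 8.64 and 10.13 FPKM in the NC group and at 8.55, 9.47 and 12.93 FPKM in the siEIF1 group. siEIF1 replicate 3 stood above the other 5 libraries, and siEIF1 replicate 1 was the lowest. The means were 9.617 ± 0.846 and 10.32 ± 2.31 FPKM (SD, n = 3 each), the widest spread of the 3 receptors. The log2 fold change was 0.12 (95% interval -0.12 to 0.36, adjusted p = 0.499, edgeR). Without siEIF1 replicate 3 it was -0.06, so 1 library set its sign. Its window of 250 bases held 6 GC boxes and 3 copies of the E-box CACGTG, which occurred in 6.34% of all windows and in 1 of the 9 windows of the family.

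IRS1 (ENSG00000169047.6, chr2:226731312-226799820, reverse strand, 2 exons), a docking protein that both receptor kinases phosphorylate, was at 4.74, 5.12 and 5.24 FPKM in the NC group and at 4.04, 4.04 and 4.89 FPKM in the siEIF1 group. siEIF1 replicates 1 and 2 lay under all NC libraries, and siEIF1 replicate 3 lay among them. Means were 5.033 ± 0.261 and 4.323 ± 0.491 FPKM (SD, n = 3 each). The log2 fold change was -0.20 (SE 0.0675, 95% interval -0.35 to -0.06) and missed the threshold at an adjusted p of 0.0509 by edgeR. It passed in 8 of 15 fits, among them DESeq2 (adjusted p = 0.0449), the RLE scaling (0.0488), the fit with the replicate number as a block (0.00938) and the fit without siEIF1 replicate 3 (0.00329), and its adjusted p reached 0.183 in another. Its sign was negative in all 15 fits.

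IRS2 (ENSG00000185950.9, chr13:109752695-109786583, reverse strand, 2 exons), the second main docking protein, was at 15.44, 15 and 15.8 FPKM in the NC group and at 16.02, 15.24 and 16.36 FPKM in the siEIF1 group. The groups overlapped by FPKM but not by CPM. The means were 15.41 ± 0.401 and 15.87 ± 0.574 FPKM (SD, n = 3 each). The log2 fold change was 0.06 (95% interval -0.03 to 0.16, adjusted p = 0.359, edgeR), so a rise above 1.11-fold lies outside the interval. The ratio of IRS2 to IRS1, a description chosen after the values were seen, was 3.26, 2.93 and 3.02 in the NC group and 3.97, 3.77 and 3.35 in the siEIF1 group. IRS2 was thus the more abundant substrate in every library, and the ratio was higher in each siEIF1 library than in any NC library.

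**Figure D3:**
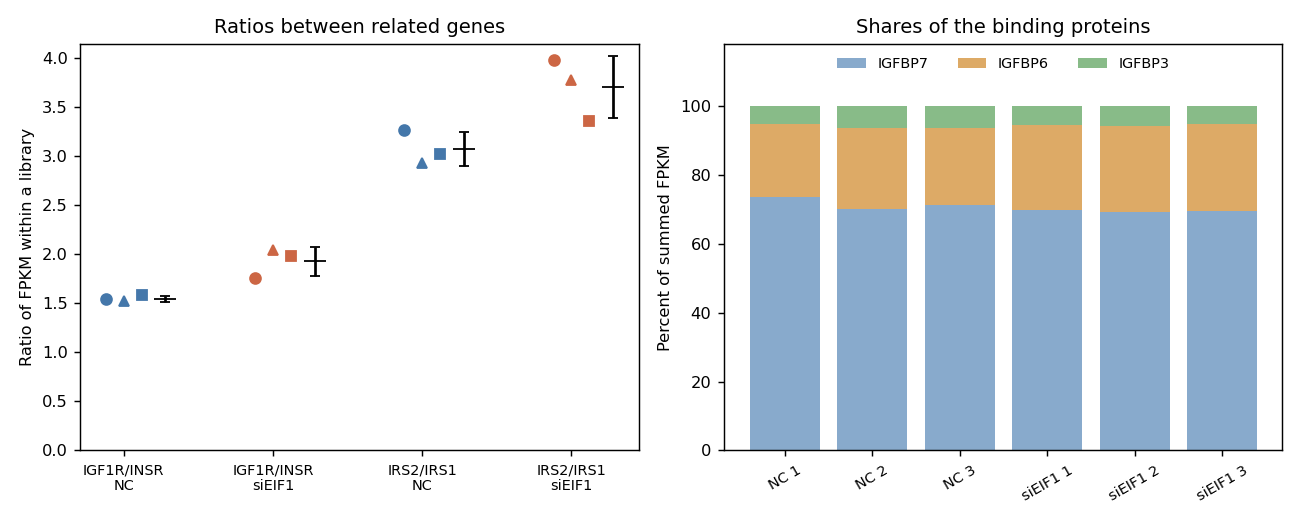
Left, ratio of FPKM of IGF1R to INSR and of IRS2 to IRS1 in each library (circle, triangle and square for replicates 1, 2 and 3), with the mean ± SD of 3 libraries in black. Right, percent of the summed FPKM of the 5 binding proteins held by IGFBP7, IGFBP6 and IGFBP3 in each library, in which IGFBP7 holds 69.3% to 73.6%.

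IGFBP7 (ENSG00000163453.11, chr4:57030773-57110385, reverse strand, 5 exons), a secreted protein that binds IGFs weakly and also insulin, was the most abundant gene of the family. Its level was 338.2, 328.81 and 344.89 FPKM in the NC group and 400.66, 406.65 and 364.68 FPKM in the siEIF1 group. The groups did not overlap, and siEIF1 replicate 3 was the nearest to the NC libraries. Means were 337.3 ± 8.08 and 390.7 ± 22.7 FPKM (SD, n = 3 each). IGFBP7 rose 1.18-fold, a log2 fold change of 0.23 (SE 0.059, 95% interval 0.11 to 0.36, adjusted p = 0.0129, edgeR). The call was lost without NC replicate 2 (adjusted p = 0.0608), NC replicate 3 (0.0509) or siEIF1 replicate 2 (0.0699), and it held in 12 of 15 fits.

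IGFBP6 (ENSG00000167779.9, chr12:53097436-53102345, forward strand, 4 exons), which binds IGF2 more tightly than IGF1, showed the clearest difference of the family. It was at 97.27, 110.46 and 108.06 FPKM in the NC group and at 142.32, 145.24 and 133.17 FPKM in the siEIF1 group. Every siEIF1 library lay above every NC library. Means were 105.3 ± 7.03 and 140.2 ± 6.3 FPKM (SD, n = 3 each). IGFBP6 rose 1.35-fold, a log2 fold change of 0.44 (SE 0.0613, 95% interval 0.30 to 0.57, adjusted p = 0.000264, edgeR), and 12.5% of all tested genes had a larger absolute change. The call held in all 15 fits, with log2 fold changes from 0.38 to 0.48.

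The sequence before the RefSeq start of IGFBP6 is shown because this gene had the smallest adjusted p of the family and was the only gene of the 9 with an entry whose window held GTAAACA, the core letters of a forkhead (FOXO) site. FOXO factors are held out of the nucleus by AKT. The stretch is chr12:53097469-53097498 (GRCh38.p14, forward strand), with the match in capitals, 186 bases before the RefSeq start and inside the gene as GENCODE annotates it.
IGFBP6: gcaatttgggaaGTAAACAgaaactggaaa
These letters occurred in 2.98% of all windows on either strand. The match is a description of letters and says nothing of binding. No entry was found for IGFBP7.

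IGFBP3 (ENSG00000146674.16, chr7:45912245-45921874, reverse strand, 5 exons), the main carrier of IGFs in serum, was at 24.08, 29.99 and 31.21 FPKM in the NC group and at 31.44, 34.43 and 27.84 FPKM in the siEIF1 group. NC replicate 1 was the lowest, and siEIF1 replicate 3 lay among the NC libraries. Means were 28.43 ± 3.81 and 31.24 ± 3.3 FPKM (SD, n = 3 each), with a log2 fold change of 0.16 (95% interval -0.05 to 0.36, adjusted p = 0.276, edgeR). The log2 fold change depended on single libraries, at 0.05 without NC replicate 1 (adjusted p = 0.751), 0.065 without siEIF1 replicate 2 (0.731) and 0.25 without siEIF1 replicate 3 (0.0502), by edgeR.

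IGFBP5 and IGFBP4, both carriers of IGFs that are cut by extracellular proteases, were near the limit of detection. IGFBP5 (ENSG00000115461.5, chr2:216672105-216695549, reverse strand, 4 exons) had 10, 10 and 13 counts in the NC and 15, 20 and 15 counts in the siEIF1 libraries. All siEIF1 counts were above the NC counts, and the log2 fold change was 0.49 with a wide interval (-0.24 to 1.21, adjusted p = 0.35, edgeR). IGFBP4 (ENSG00000141753.7, chr17:40443450-40457725, forward strand, 4 exons) had 4, 0 and 0 counts in the NC and 0, 1 and 0 counts in the siEIF1 libraries. It was not tested. In the libraries with 0 counts, a level of up to 0.0965 to 0.106 CPM remains possible (3 counts over the TMM-scaled library size, counting error only). A difference in IGFBP4 was not detectable at this depth.

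The 5 binding proteins summed to 459.7, 469.3 and 484.2 FPKM in the NC group and to 574.5, 586.4 and 525.8 FPKM in the siEIF1 group, a description with no test. The mean sum was 1.19-fold higher in the siEIF1 group (562.2 ± 32.1 against 471.1 ± 12.4 FPKM, SD, n = 3 each). IGFBP7 held 73.6%, 70.1% and 71.2% of the sum in NC and 69.7%, 69.3% and 69.4% in siEIF1 libraries. IGFBP6 held 21.2%, 23.5% and 22.3% in NC and 24.8%, 24.8% and 25.3% in siEIF1 libraries, so its share was higher in every siEIF1 library. IGFBP3 held 5.24% to 6.45% of the sum over all 6 libraries, with overlapping groups. The difference in the IGFBP7 share, -2.14 percentage points, was -1.16 without NC replicate 1 and -1.13 with CPM in place of FPKM.

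siEIF1 replicate 3, set against the mean of the other siEIF1 libraries, differed in opposite directions for the receptors and substrates and for the binding proteins. Its log2 CPM minus the mean of siEIF1 replicates 1 and 2 was 0.48 for IGF2R, 0.23 for IRS1, 0.16 for IGF1R, 0.10 for INSR and 0.02 for IRS2. For the binding proteins it was -0.16 for IGFBP6, -0.18 for IGFBP5, -0.19 for IGFBP7 and -0.29 for IGFBP3. Over all tested genes the median of the same difference was -0.10, -0.03, 0.02 and 0.09 from the shortest to the longest of 4 bins of transcript length. IGFBP6 (947 bases) and IGFBP7 (1427 bases) are in the shortest bin. IGFBP3 (2613 bases) is in the next-shortest bin, with a difference of -0.29 beside that bin's median of -0.03. The receptors, the substrates and IGFBP5 (6239 bases) are in the longest, IGFBP5 with a difference of the opposite sign to its bin. The part of transcript length in these values was not tested. Replicate 3 did not stand apart from both other siEIF1 libraries for every gene. For IGF1R it was near replicate 2 (89.85 and 88.88 CPM), with replicate 1 at 72.53 CPM. For IRS2 it was near replicate 1 (161.5 and 161.4 CPM). For IGFBP5, replicates 1 and 3 had 15 counts each and replicate 2 had 20. The edgeR fit without siEIF1 replicate 3 gave a log2 fold change of 0.23 for IGF1R, 0.29 for IGFBP7 and 0.48 for IGFBP6, all called.

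**Figure D4:**
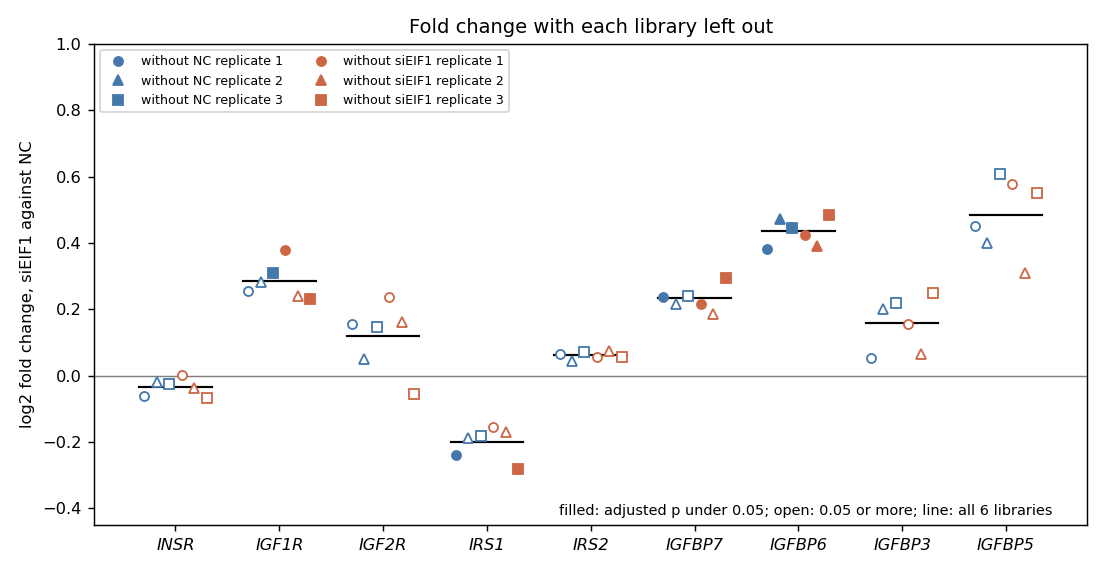
Log2 fold change (siEIF1 against NC, edgeR) of the 9 tested genes with 1 library left out at a time; horizontal lines give the value with all 6 libraries, and filled symbols passed an adjusted p of 0.05. IGFBP6 passed in all 6 such fits, and IGF2R was below 0 only without siEIF1 replicate 3.

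Other genes of the family were scarce. IGFBP2, which lies 7668 bp from IGFBP5 on chromosome 2, had 57, 77 and 68 counts in the NC and 49, 76 and 55 counts in the siEIF1 libraries, with a log2 fold change of -0.27 (SE 0.21, adjusted p = 0.412, edgeR). IGFBP1, which lies 18584 bp from IGFBP3 on chromosome 7, had 11, 7 and 3 counts in NC and 6, 4 and 5 counts in siEIF1 libraries. The neighbours of the moderately expressed IGFBP3 and the scarce IGFBP5 were thus themselves at low counts. IGFALS, the subunit of the serum IGF complex, had 4 to 17 counts per library. INSL3, an insulin-like hormone, had 2 to 4 counts, the substrate IRS4 had 0 to 3 and IGFBPL1 had 0 to 3.

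Genes of the list of binding protein proteases and regulators, which also holds the insulin-degrading enzyme IDE, moved in both directions. Of the 6 tested proteases and regulators 2 rose and 1 fell, with a median log2 fold change of -0.01. MMP2, a matrix metalloproteinase that can cut several binding proteins, rose from 7.32 ± 0.45 to 11.3 ± 0.524 FPKM (SD, n = 3 each), a log2 fold change of 0.65 (adjusted p = 1e-05, edgeR). HTRA1, a secreted serine protease known to cut IGFBP5, rose by a log2 fold change of 0.24 (adjusted p = 0.00843, edgeR). STC2, a stanniocalcin that inhibits the pappalysin proteases, fell from 61 ± 2.6 to 46.7 ± 3.02 FPKM (SD, n = 3 each), a log2 fold change of -0.36 (adjusted p = 0.000265, edgeR). Of the pappalysins themselves, PAPPA, which cuts IGFBP4, had 0 to 3 counts per library, while PAPPA2, which cuts IGFBP3 and IGFBP5, had 569 to 849 counts and a log2 fold change of -0.05 (SE 0.133, adjusted p = 0.848, edgeR).

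Genes of the pathway were placed by known function in 8 lists: other family members, binding protein proteases and regulators, IGF2 mRNA binding proteins, and 5 lists of genes downstream of the receptors. The 8 lists held 87 tested genes, of which 15 rose, 14 fell and 58 did not pass, with a median log2 fold change of 0.03. That is 17.2% higher and 16.1% lower, beside the shares over all tested genes given above. Among 24 adaptors, phosphatases and inhibitors that act at the receptors, 2 rose and 4 fell, with a median of 0.02. SH2B1, an adaptor that enhances insulin receptor signalling, rose by a log2 fold change of 0.25 (adjusted p = 0.00694), and SHC1, which links receptors to RAS, rose by 0.17 (0.0167), both by edgeR. TRIB3, a pseudokinase that inhibits AKT, fell from 43.9 ± 3.84 to 32.1 ± 2.72 FPKM (SD, n = 3 each), a log2 fold change of -0.43 (adjusted p = 0.000495, edgeR). SH2B3, an inhibitory adaptor, had a log2 fold change of -0.55 (adjusted p = 0.00063), and GRB2, the adaptor that binds SOS, one of -0.24 (0.00474), both by edgeR. The other lower gene of that list was PTPN11.

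Of 18 tested genes of the PI3K and AKT list, 4 rose and 3 fell, with a median of 0.09. The PI3K subunits PIK3CD (log2 fold change 0.40, adjusted p = 0.00121) and PIK3R1 (0.38, 0.00354) rose, by edgeR. INPP5D, a lipid phosphatase best known from blood cells, was the only gene of these lists past 2-fold (log2 fold change 1.38, SE 0.35, adjusted p = 0.0131, edgeR), from 5 to 11 counts in NC to 22 to 26 counts in siEIF1 libraries. SGK1, a kinase activated by insulin through PI3K, fell from 1.19 ± 0.155 to 0.707 ± 0.135 FPKM (SD, n = 3 each), a log2 fold change of -0.73 (adjusted p = 0.000947, edgeR). AKT1 (-0.20, adjusted p = 0.0119) and GSK3A (-0.21, adjusted p = 0.00714) were also lower by edgeR. Of 4 FOXO factors 1 rose, FOXO4, by a log2 fold change of 0.30 (adjusted p = 0.0223, edgeR).

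Of 19 tested mTOR genes 2 rose and 3 fell, with a median of 0.01. EIF4EBP1, a repressor of cap-dependent translation that mTOR inactivates, fell from 209 ± 18.1 to 136 ± 5.86 FPKM (SD, n = 3 each), a log2 fold change of -0.60 (adjusted p = 1.56e-05, edgeR), while its relative EIF4EBP2 rose by 0.25 (adjusted p = 0.00246, edgeR). SESN2, a leucine sensor upstream of mTOR, had a log2 fold change of -0.56 (adjusted p = 0.000194) and RHEB, the GTPase that activates mTOR, one of -0.29 (0.00313), both by edgeR. TSC2, which acts on RHEB, rose by 0.27 (adjusted p = 0.00285, edgeR). Of 13 RAS and MAPK genes 3 rose and 2 fell, with RPS6KA1 (0.35, adjusted p = 0.00208), MAPK3 (0.28, 0.00226) and RPS6KA3 (0.20, 0.0153) higher and MAP2K1 (-0.27, 0.00222) and ELK1 (-0.19, 0.0303) lower, by edgeR. Members of 1 kinase cascade, MAP2K1 and its substrate MAPK3, thus moved in opposite directions.

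The IGF2 mRNA binding proteins, which bind and stabilize transcripts, divided. IGF2BP3 rose from 3.38 ± 0.0379 to 6.46 ± 0.541 FPKM (SD, n = 3 each), a log2 fold change of 0.96 (SE 0.063, adjusted p = 6.43e-07, edgeR). IGF2BP2 fell from 11.5 ± 0.493 to 8.72 ± 0.57 FPKM (SD, n = 3 each), a log2 fold change of -0.39 (adjusted p = 0.000218, edgeR). IGF2BP1 had 1 to 5 counts per library and was not tested. In NC libraries IGF2BP2 was the more abundant of the pair, and it was so by mean in siEIF1 libraries too.

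**Figure D5:**
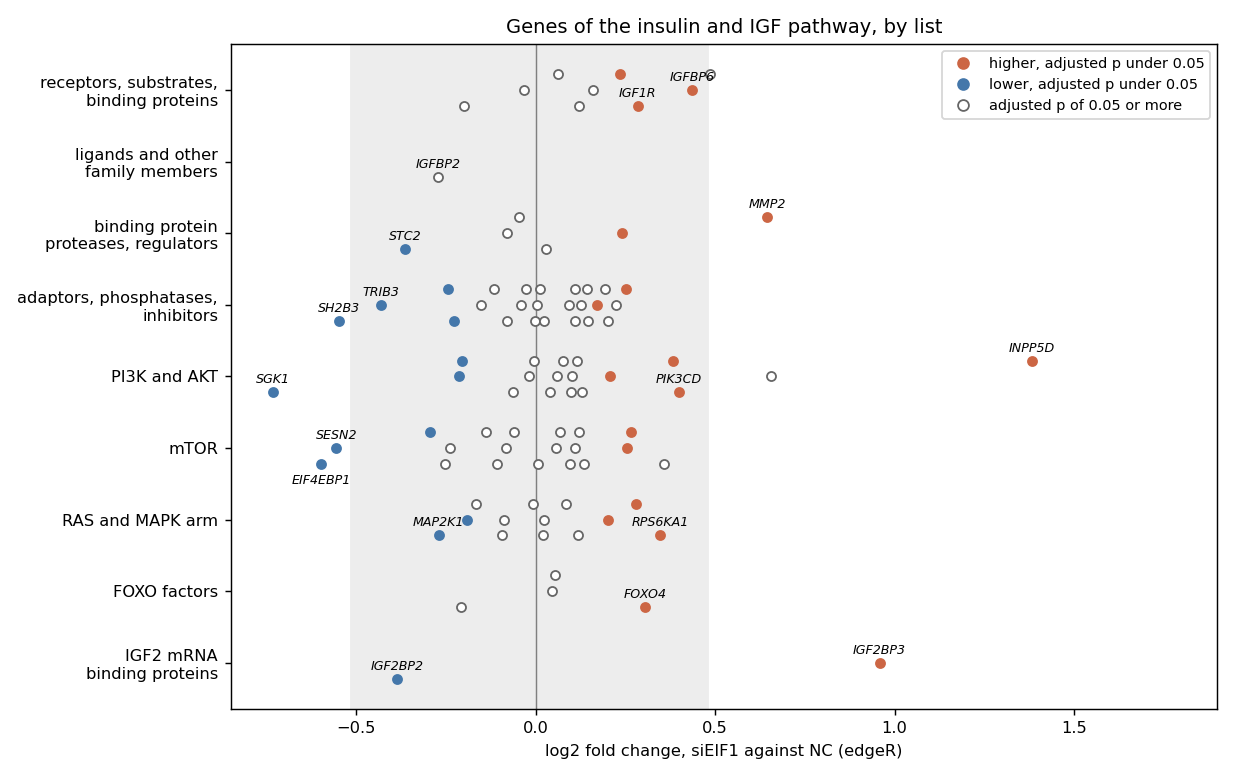
Log2 fold change (siEIF1 against NC, edgeR) of each tested gene of the family and of 8 lists of the insulin and IGF pathway; orange and blue points passed an adjusted p of 0.05, open points did not, and the grey band spans the 5th to 95th percentile of all tested genes. Every list with more than 4 tested genes besides the family has points in both colours.

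The genes whose pattern over the 6 libraries lay nearest to IGFBP6, by Euclidean distance of log2 CPM centred per gene, were BTG2 (0.0735), CMBL (0.0744) and NXN (0.0757). Nearest to IGFBP7 were GSTM3 (0.0417), MAP3K2 (0.0448) and RHOD (0.0632). A shorter distance means a closer match of the 6 values.

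Over the 9 windows before the start sites, 8 held a GC box (42.6% of all windows) on either strand, all but that of IGFBP5. The counts in these 8 ran from 1 to 6. The TATA box letters TATAAA (10.7% of all windows) were found before IGFBP4 only, among the scarcest genes of the family. The AP-1 letters TGACTCA (4.2%) and the ATF4 letters TGATGNAAT (0.888%) were in none of the 9 windows. The GC content ran from 61.2% for IGFBP5 and IGFBP6 to 81.2% for IGF1R. The receptors and substrates were at 76.4% or more, with IGFBP3 close to them at 76% and IGFBP4 at 71.6%.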

How the data were processed

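RNA-seq libraries of 3 NC and 3 siEIF1 samples were compared, each assigned to its group and replicate by its title. The authors removed poor reads, trimmed them with FASTX-Toolkit, aligned them to GRCh38 with HISAT2 and deposited raw counts of uniquely mapped reads per gene. The authors also deposited FPKM values, rounded to 2 decimals, which scale by transcript length and mapped fragments. The counting program, its strand setting and the annotation release were not given in the sources used here, so counts of genes with overlapping or antisense partners are uncertain. Of the columns with values per library, 0 were unmatched.

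Counts were filtered with filterByExpr, scaled by TMM and tested with the quasi-likelihood test of edgeR 4.0.16 in R 4.3.3, with p-values adjusted by Benjamini-Hochberg over the 16749 tested genes and a threshold of 0.05. Levels are given as FPKM and, where named, as CPM with TMM. The scripts were tested on simulated data. The alternatives were RLE and upper-quartile scaling, no filter, at least 10 counts in every library, DESeq2 1.42.0, limma 3.58.1 on log2(FPKM + 1) and log2(FPKM + 0.1), the replicate number as a block, a fold above 2 or below 0.5, CPM in place of FPKM for ratios and shares, and leaving out each library. Libraries of 1 group differed by more than sampling noise, with chi-square values per degree of freedom of 2.87 to 13. Positions and transcript lengths are from GENCODE release 44 on GRCh38, and promoter windows from RefSeq, which matched 9 of the 10 genes. Of the 30618 gene identifiers 30535 were found in that release when version numbers were ignored.

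The genes and the pathway and marker lists were chosen with earlier results of these data known. All 10 genes of the family are named, with EIF1, the other family members in the tables, up to 3 genes with the smallest p in each direction of each pathway list among those called, and the 3 genes nearest in pattern to IGFBP6 and IGFBP7, which had the highest and the lowest fold change of those called. PAPPA, PAPPA2, IDE, PTPN11, IGF2BP1, TYR, BEST1, KRT8, KRT18, RLBP1 and PDGFRB were named after their values were seen.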

Additional observations from a re-analysis of the deposited data

How the results depend on the processing

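The count of family genes called higher (3) was 0 with a fold above 2 and ranged from 1 to 3 with 1 library left out, at 1 without NC replicate 2 and without siEIF1 replicate 2. The count called lower (0) was 1, IRS1, under RLE scaling, upper-quartile scaling, no filter on low counts, at least 10 counts in every library, DESeq2 and the replicate block, and ranged from 0 to 1 with 1 library left out. INSR ranged from -0.068 to 0.003 and IGF2R from -0.056 to 0.237 in log2 fold change with 1 library left out, both changing sign. With either form of limma, 9 pathway genes were called higher in place of 15. Over all genes, 1067 were called higher with limma on log2(FPKM + 1) and 1071 on log2(FPKM + 0.1), in place of 1702. With 1 library left out, 1118 to 1709 genes were called higher and 1124 to 1763 lower. The cause of these shifts was not tested. Of 126 values for the 9 tested genes under 14 settings, 108 kept their direction and their side of the threshold, 8 were no longer past it, 8 newly passed it and 2 changed sign. The fold change of EIF1 kept its call and the ratio of IGF1R to INSR its direction. The shares kept their direction and moved by less than 1 SD of the replicates, but the IGFBP7 difference of -2.14 percentage points was -1.16 without NC replicate 1 and -1.13 with CPM, and the IGFBP3 difference of -0.478 was -0.871 without NC replicate 1, -0.925 with CPM, -0.296 without NC replicate 2 and -0.268 without NC replicate 3. For IGFBP5, DESeq2 gave no adjusted p.

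The labels do not say that equal replicate numbers share a culture or day. Deviations from the group means of same-numbered libraries correlated at 0.149, 0.095 and 0.128 over all tested genes, and at 0.161, 0.158 and 0.216 over genes with a mean CPM of at least 1, and 6 of 6 libraries correlated best with their own number, a hint from the data and not from the design. With the replicate number as a block, 2149 genes were called higher and 2128 lower, and IRS1 was called lower (adjusted p = 0.00938, edgeR).

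Genes under about 20 counts, IGFBP5 and IGFBP4 among them, carry wide errors or no test at this depth, and strand and annotation settings of the counting are unknown.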
